A study of Mus musculus with 20 samples.

Results

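The genes described here are 44 genes of DNA replication and cell division, listed by name: 19 that act in S phase, when DNA is copied, and 25 that act in mitosis, when the copies are separated. They were found by symbol in a table of 23020 genes measured in mouse small intestinal crypts. All 19 S phase genes and 24 of the 25 mitotic genes were found. Kif11, a spindle motor, was not found, so its level was not analysed here, but its promoter is counted among those described below. Of the 43 found, 42 had a mean level high enough to be tested (18 S phase and 24 mitotic). Cdc6, which loads the replicative helicase, was below that minimum, with levels between 2.36 and 2.76 on the log2 scale in the 20 libraries.

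Small intestinal crypts are among the fastest renewing tissues of the body. Stem cells at the crypt base give rise to transit-amplifying cells, which pass through several rapid divisions before they leave the crypt and differentiate. A dividing cell licenses its replication origins in G1 by loading the Mcm2 to Mcm7 helicase, copies its DNA in S phase, and then builds a spindle under the control of cyclin B and Cdk1. Genes of the first group are largely switched on by E2F factors at the start of S phase, and those of the second in G2 and mitosis by complexes with B-Myb. Many promoters of the second group hold a cell cycle genes homology region (CHR) and CCAAT boxes.

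The libraries came from C57BL/6 mice, either wild-type (WT) or labelled Xiap-/-, which lack Xiap, an inhibitor of caspases and a mediator of NOD2 signalling. Mice were kept with their own genotype (housed apart) or with the other genotype for 4 weeks (co-housed). The 4 groups were WT housed apart (6 libraries), Xiap-/- housed apart (4), WT co-housed (5) and Xiap-/- co-housed (5). The labels do not give age, sex, cage, the date of collection or the deleted part of Xiap, and nothing in them says whether each library is a separate animal, so p-values measure the spread between libraries. Xiap transcript had a mean of 6.81 (SD 0.17) in WT and 6.38 (SD 0.10) in Xiap-/- libraries housed apart, and of 6.67 (SD 0.20) and 6.62 (SD 0.22) in the co-housed ones. Since reads come from the 3' end of transcripts and the deleted part is not named, that level does not check the labels. Absorptive cell markers (16 of 16), Paneth cell markers (9 of 9) and stem cell markers (11 of 12) passed the minimum level, as did 11 of 12 T cell markers, 7 of 8 goblet cell markers, 3 of 8 B and plasma cell markers and 1 of 8 stromal markers. One label speaks of liver, but among 6 hepatocyte markers Ttr alone was tested, with a mean of 4.11, and the absorptive cell gene Fabp2 had a mean of 13.75.

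The letters of the promoters are a feature that was not used to choose the members, and they are shown to set S phase genes beside mitotic genes. Sequences from 250 bases before to 50 bases after the annotated start were taken from RefSeq on GRCm38.p6 and matched by symbol for 36 of the 44 members. Mcm4, Gins2, Ccne2, Ccna2, Aurkb, Tpx2, Kif20a and Stmn1 had no entry. Printed here, 5′ to 3′ on the strand of the gene, are the 250 bases before the start of 1 S phase gene and 3 mitotic genes, with capitals for the E2F letters (TTTCGCGC or TTTGGCGC), the CHR letters (TTTGAA) and the CCAAT box (CCAAT), each on either strand. All 4 genes lie on the minus strand. The windows are chr1:128359706-128359955 for Mcm6, chr10:69352913-69353162 for Cdk1, chr7:135716380-135716629 for Mki67 and chr11:99024190-99024439 for Top2a.
Mcm6: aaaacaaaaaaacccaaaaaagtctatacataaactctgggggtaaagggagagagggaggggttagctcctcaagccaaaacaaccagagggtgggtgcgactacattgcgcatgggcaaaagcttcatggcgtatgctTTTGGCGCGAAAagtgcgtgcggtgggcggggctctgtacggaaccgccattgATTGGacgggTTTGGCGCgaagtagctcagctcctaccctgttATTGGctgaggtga
Cdk1: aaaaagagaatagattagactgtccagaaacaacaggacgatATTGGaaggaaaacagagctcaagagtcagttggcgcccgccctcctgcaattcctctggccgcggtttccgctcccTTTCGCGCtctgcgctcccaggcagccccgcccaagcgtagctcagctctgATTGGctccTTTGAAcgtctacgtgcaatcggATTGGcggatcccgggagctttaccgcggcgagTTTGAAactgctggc
Mki67: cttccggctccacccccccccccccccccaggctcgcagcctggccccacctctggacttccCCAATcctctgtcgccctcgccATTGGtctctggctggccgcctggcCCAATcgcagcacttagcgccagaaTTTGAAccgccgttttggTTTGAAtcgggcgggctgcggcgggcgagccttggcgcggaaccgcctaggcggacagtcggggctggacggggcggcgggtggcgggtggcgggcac
Top2a: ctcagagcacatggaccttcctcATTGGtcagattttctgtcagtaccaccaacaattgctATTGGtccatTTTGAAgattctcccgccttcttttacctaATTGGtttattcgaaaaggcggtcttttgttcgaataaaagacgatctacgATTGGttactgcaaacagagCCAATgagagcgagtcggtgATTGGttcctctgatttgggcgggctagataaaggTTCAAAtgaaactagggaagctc

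Mcm6 held E2F letters at 3 places, of which a pair overlap on opposite strands (TTTGGCGC from base -110 to -103 and GCGCGAAA from -106 to -99, counted from the start), and CCAAT letters at 2 places. Top2a held no E2F letters, CHR letters at 2 places and CCAAT letters at 6. Mki67 held the CHR letters at 2 places, from -116 to -111 and from -98 to -93, and CCAAT at 3. Cdk1 held both kinds, with E2F letters from -131 to -124 and CHR letters from -71 to -66 and from -15 to -10. Among members with an entry, E2F letters stood in the promoters of 6 of 16 S phase genes (37.5%; Mcm3, Mcm5, Mcm6, Mcm7, Cdt1 and Uhrf1) and 1 of 20 mitotic genes (5%; Cdk1). They stood in 1.99% of 7069 tested genes and in 0.929% of 27025 genes of the whole table. The CHR letters stood in 2 of 16 S phase genes (12.5%; Mcm2 and Fen1), in 15 of 20 mitotic genes (75%), in 14.4% of tested genes and in 20.2% of the whole table. CCAAT stood in 62.5% of the S phase genes, 90% of the mitotic genes, 43.1% of tested genes and 41.1% of the whole table. A match is a description of letters, and no binding was measured here.

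**Figure D1:**
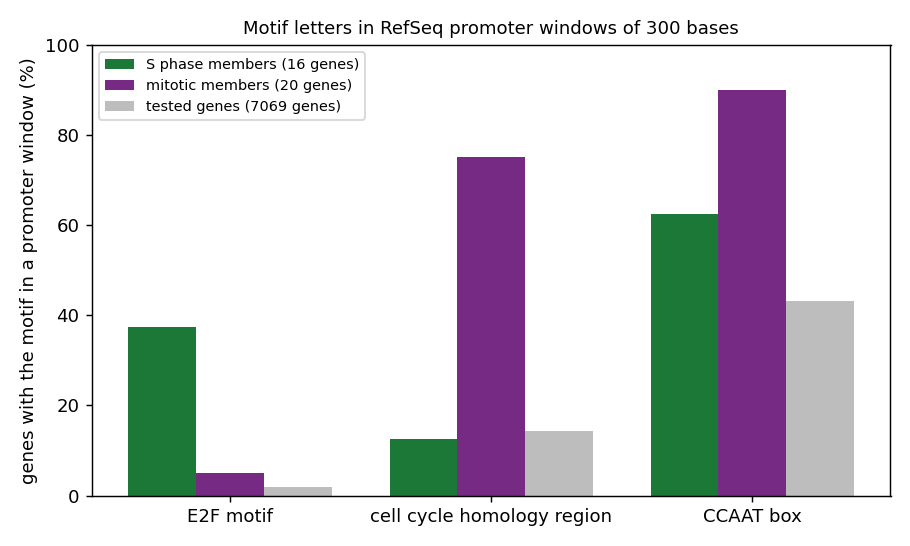
Share of genes (%) with the letters of each motif in a promoter window of 300 bases, for 16 S phase members, 20 mitotic members and 7069 tested genes with a RefSeq entry. E2F letters stand in 37.5% of S phase and 5% of mitotic members, and the CHR letters in 12.5% and 75%.

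Transcripts of the whole division cycle were present in every group. Each molecule is read at its 3' end, so levels were not divided by transcript length, and capture can still differ between genes. The median level was 5.44 on the log2 scale for the S phase members and 6.23 for the mitotic members, against 5.64 for all 9521 tested genes. The highest levels belonged to Top2a, the topoisomerase that untangles chromosomes (mean 8.07), Mki67, a coat protein of mitotic chromosomes (7.75), and Birc5 and Cdca8, subunits of the chromosomal passenger complex (7.22 and 6.95). Among S phase genes Mcm6 was highest (6.81), followed by Rrm1, a subunit of ribonucleotide reductase (6.56), Mcm2 (6.02) and Tyms, which makes thymidylate (5.94). The other Mcm helicase genes lay close together, with Mcm7 at 5.88, Mcm3 at 5.84, Mcm5 at 5.43 and Mcm4 at 5.26. At the low end were the G1/S cyclins Ccne2 (3.85) and Ccne1 (3.41) and the mitotic genes Kif20a (4.04), Stmn1 (3.75) and Bub1 (3.50). The mitotic cyclins differed widely, with Ccnb2 at 6.57 and Ccnb1 at 4.70, while their partner Cdk1 had a mean of 6.44.

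Members varied between libraries of a group about as much as other genes did. The median residual SD was 0.152 for the S phase members and 0.164 for the mitotic members, against 0.151 for all tested genes. It was lowest for Ung (0.106) and Mcm6 (0.108). It was highest for Cenpf (0.265), Cenpe (0.258), Mki67 (0.254), Kif23 (0.227) and Top2a (0.223), all genes of late G2 and mitosis. With this spread the 95% interval of a difference between 2 groups reached a median of 0.191 to 0.212 to either side, depending on the comparison, and every interval of the 42 members lay within 1 log2 unit of 0 in every comparison.

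**Figure D2:**
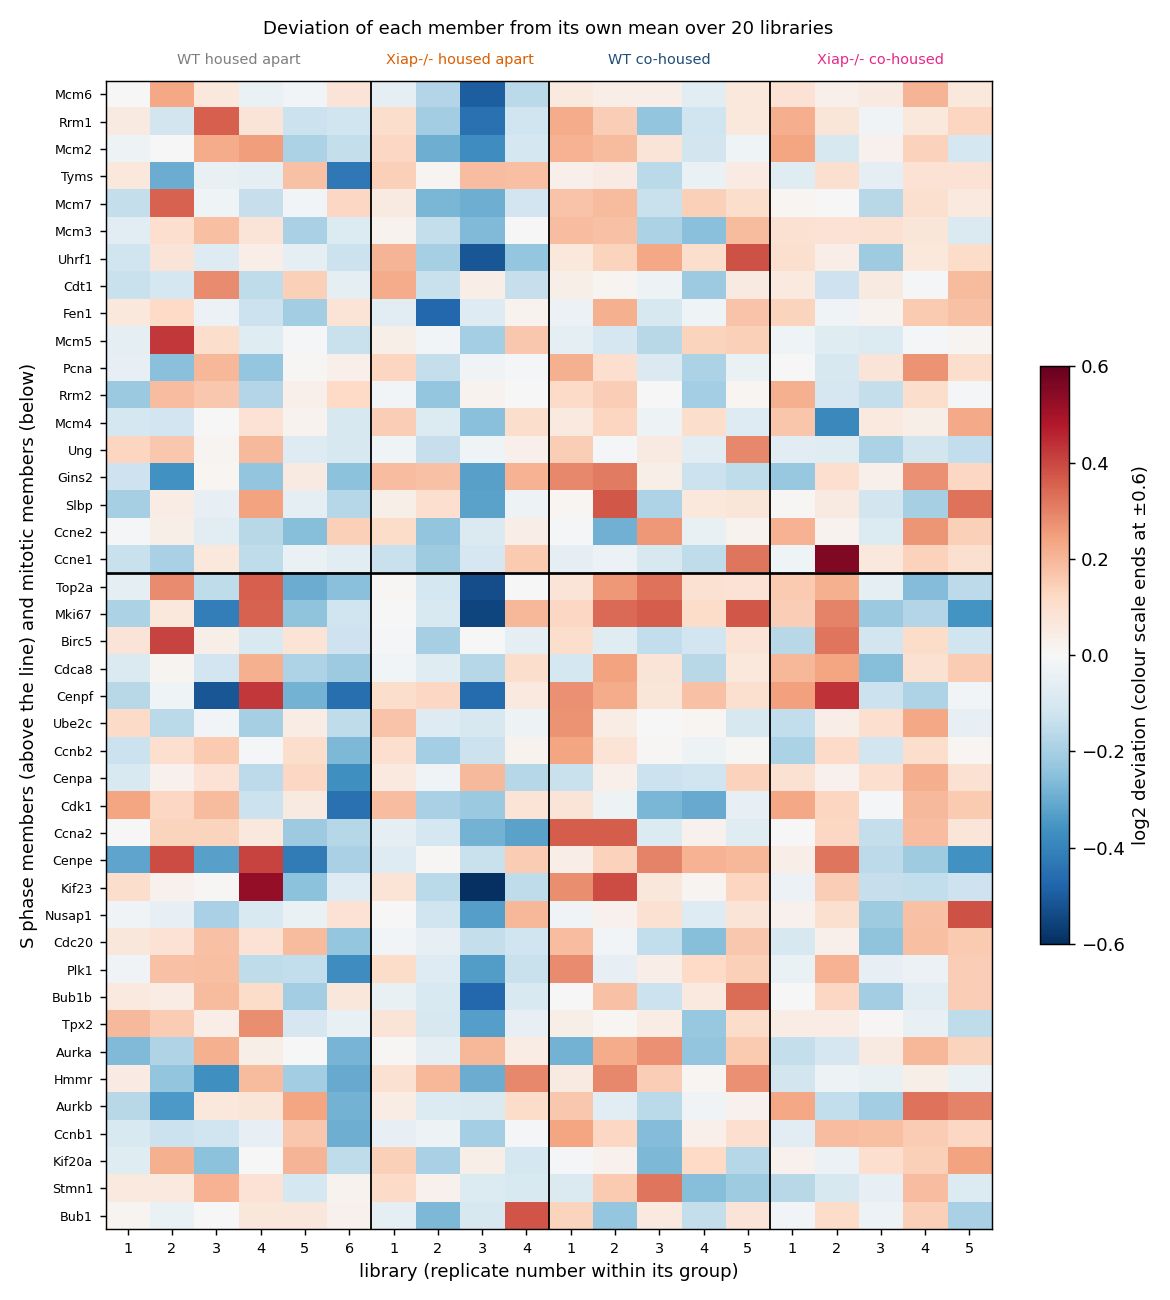
Deviation of each of the 42 tested members (rows) from its own mean over 20 libraries (columns), in log2 units, with S phase members above the line. Most rows are blue in Xiap-/- housed apart replicate 3, where 6 of 42 members stand above their own mean, and most are red in WT co-housed replicate 5, where 33 of 42 do.

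The first comparison asked how crypts of Xiap-/- mice differed from WT crypts when the genotypes were housed apart. By limma with Benjamini-Hochberg adjustment over 9521 genes, 0 of 42 members passed an adjusted p of 0.05, where 0.452% of all tested genes did. At an unadjusted p under 0.05 there were 4 of 42 members (9.52%), below the 15.8% of all tested genes. The difference, coded Xiap-/- minus WT, was above 0 for 15 of 42 members, against 49.1% of all tested genes, and its median was -0.060 for the S phase members and -0.027 for the mitotic members. The intervals of the members excluded a fold below 0.684 or above 1.36.

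Mcm6, a subunit of the replicative helicase, had the smallest p. Its level lay between 6.77 and 7.04 (median 6.84) in the 6 WT libraries, and was 6.75, 6.63, 6.32 and 6.65 in the 4 Xiap-/- libraries. All Xiap-/- libraries were below all WT libraries, a separation seen in 1.87% of all tested genes and in no other member. The difference was -0.27 (SE 0.086, 95% interval -0.45 to -0.10, adjusted p = 0.12). Without Xiap-/- replicate 3, the lowest library, it was -0.18 (adjusted p = 0.363), and without WT replicate 5 it was -0.29 (adjusted p = 0.0408). The latter refit called 697 of all 9521 tested genes, against 43 with all libraries. Tyms was instead higher in Xiap-/- libraries by 0.23 (SE 0.096, adjusted p = 0.244), with levels of 6.08, 5.95, 6.12 and 6.12 against 5.51 to 6.11 (median 5.89) in WT, so the groups overlapped. The other helicase genes Mcm2 (-0.18), Mcm7 (-0.18), Mcm3 (-0.10) and Mcm5 (-0.047) had negative differences within about 2 SE of 0. The difference was 0.015 for Mcm4 and 0.21 for the helicase subunit Gins2, and 0.00 to 2 decimals for the licensing factor Cdt1.

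Kif23, a motor of the central spindle needed for cytokinesis, had the smallest p among mitotic members. It lay between 6.01 and 6.79 (median 6.28) in WT and was 6.34, 6.09, 5.56 and 6.10 in Xiap-/- libraries, a difference of -0.29 (SE 0.13, adjusted p = 0.255). The groups overlapped, and without Xiap-/- replicate 3 the difference was -0.14 (adjusted p = 0.676). Bub1b, a spindle checkpoint kinase, lay between 5.20 and 5.60 (median 5.47) in WT and was 5.36, 5.32, 4.94 and 5.32 in Xiap-/- libraries, a difference of -0.22 (SE 0.10, adjusted p = 0.287) that was -0.12 (adjusted p = 0.671) without Xiap-/- replicate 3. The proliferation marker Mki67 was 7.75, 7.65, 7.20 and 7.94 in Xiap-/- libraries and between 7.33 and 8.10 (median 7.59) in WT, a difference of -0.020 (SE 0.14). Pcna, the sliding clamp of the replication fork, differed by 0.038 (SE 0.098), Top2a by -0.14 (SE 0.12, and -0.018 without Xiap-/- replicate 3), Cdk1 by -0.043 (SE 0.11) and Ccnb1 by 0.014 (SE 0.094). With 1 library left out, the count above 0 ran from 11 of 42 (without Xiap-/- replicate 1) to 21 of 42 (without Xiap-/- replicate 3).

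**Figure D3:**
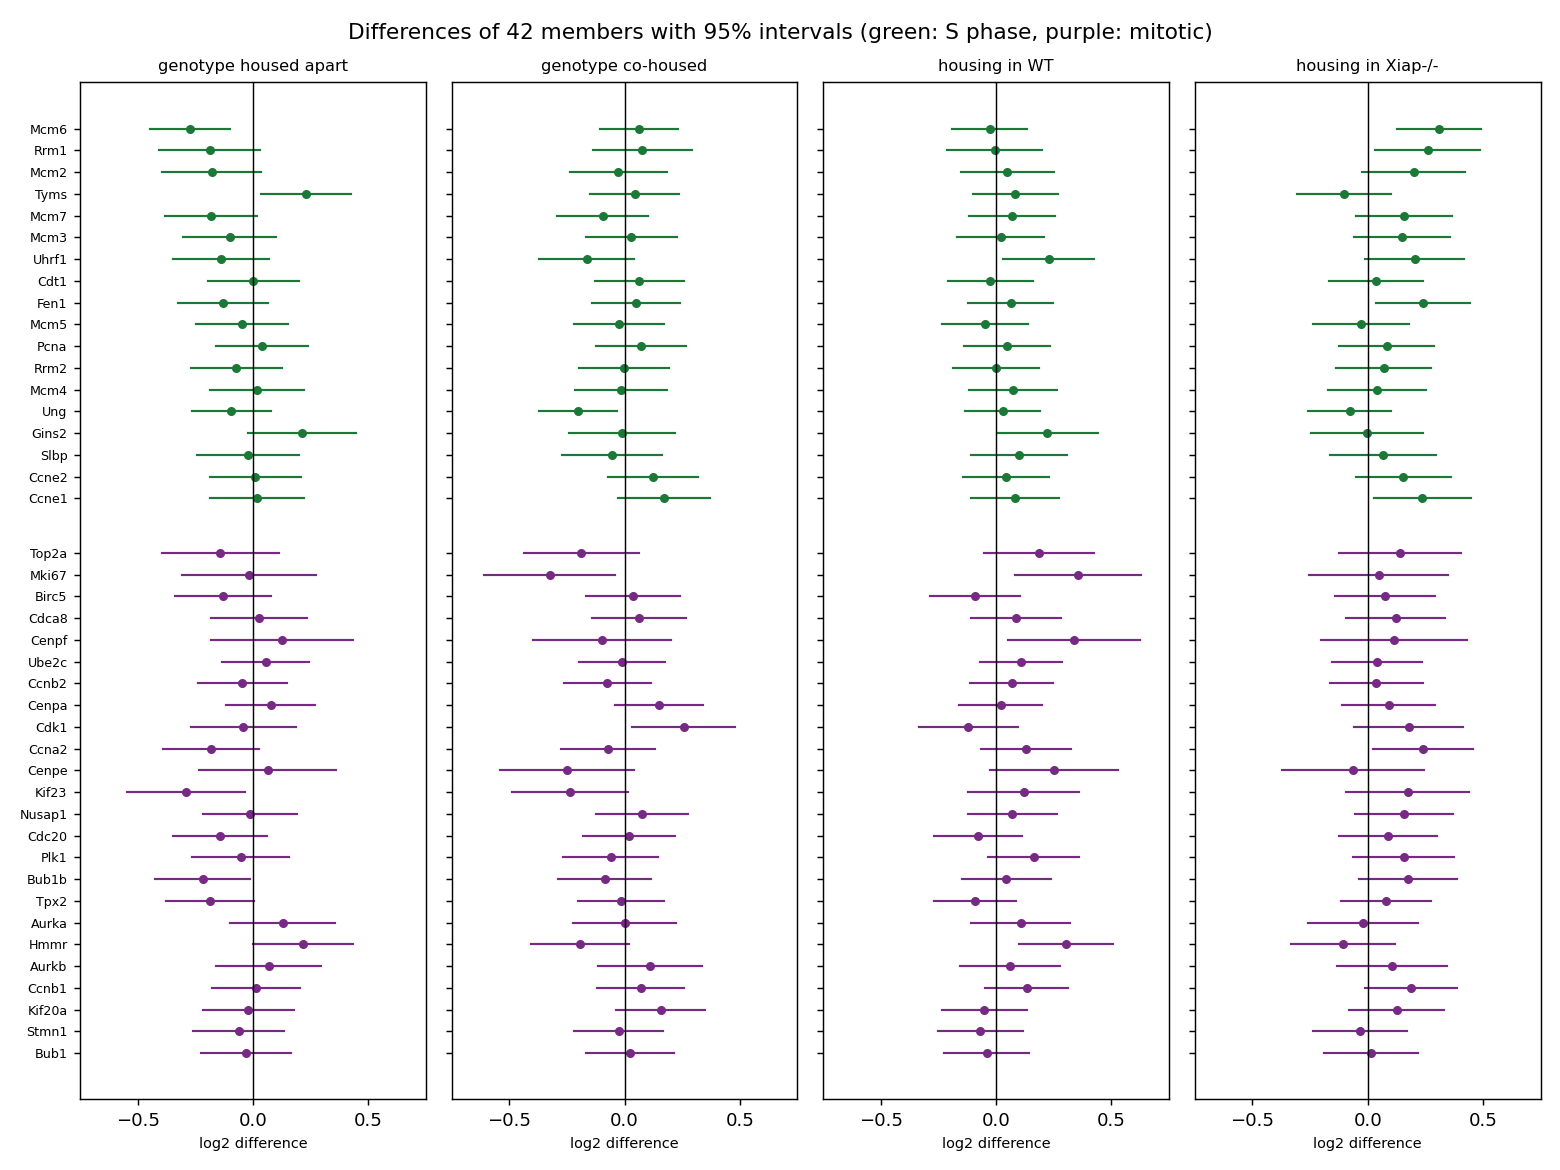
Difference (log2, dot) with its 95% interval (line) for 42 members in the 4 comparisons of 2 groups, Xiap-/- minus WT or co-housed minus housed apart, with S phase members in green and mitotic members in purple. For housing, 30 of 42 dots in WT and 34 of 42 in Xiap-/- lie to the right of 0, and no member passed an adjusted p of 0.05.

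Among co-housed mice the same question was asked of genotype. Again 0 of 42 members passed by limma, against 0.0315% of all tested genes, and 3 of 42 (7.14%) had an unadjusted p under 0.05, against 12% of all. The difference was above 0 for 20 of 42 members (51.1% of all tested genes), with a median of 0.013 for S phase and -0.013 for mitotic members. The intervals excluded a fold below 0.655 or above 1.39. The S phase member with the smallest p was Ung, the glycosylase that removes uracil from DNA. It was 4.80, 4.64, 4.71, 4.59 and 4.94 in WT and 4.59, 4.58, 4.46, 4.54 and 4.50 in Xiap-/- libraries. All Xiap-/- libraries lay below all WT libraries, though the closest pair both round to 4.59, as in 3.09% of all tested genes and in no other member. The difference was -0.20 (SE 0.083, adjusted p = 0.328). Ccne1, a cyclin that starts S phase, differed by 0.17 (SE 0.098, adjusted p = 0.494), and by 0.073 (adjusted p = 0.751) without Xiap-/- replicate 2.

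The 2 mitotic genes with the smallest p, neither of which passed, had differences of opposite sign. Mki67 was 7.87, 8.09, 8.11, 7.86 and 8.12 in WT and 7.89, 8.04, 7.52, 7.57 and 7.39 in Xiap-/- libraries, a difference of -0.33 (SE 0.14, adjusted p = 0.343). Cdk1, the kinase that drives entry into mitosis, was 6.52, 6.41, 6.17, 6.14 and 6.39 in WT and 6.68, 6.58, 6.43, 6.64 and 6.60 in Xiap-/- libraries, a difference of 0.26 (SE 0.11, adjusted p = 0.341). Both pairs of groups overlapped. The differences were 0.072 (SE 0.096) for Pcna, -0.19 (SE 0.12) for Top2a, -0.026 (SE 0.096) for Mcm5 and 0.069 (SE 0.092) for Ccnb1.

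Co-housing was then compared with housing apart within each genotype. In WT mice 0 of 42 members passed by limma, as did 0% of all tested genes, and 5 of 42 (11.9%) had an unadjusted p under 0.05, against 10.2% of all. The difference, coded co-housed minus housed apart, was above 0 for 30 of 42 members, against 48.1% of all tested genes, with a median of 0.049 for S phase members (13 of 18 above 0) and 0.077 for mitotic members (17 of 24). Mki67 lay between 7.33 and 8.10 (median 7.59) in WT libraries housed apart and between 7.86 and 8.12 in the co-housed ones. Its difference of 0.35 (SE 0.13, 95% interval 0.081 to 0.63, adjusted p = 0.389) was the largest of any member here. Hmmr, a microtubule-binding protein of the spindle, lay between 4.62 and 5.18 (median 4.77) housed apart and was 5.05, 5.28, 5.14, 5.01 and 5.27 co-housed. It differed by 0.30 (SE 0.10, adjusted p = 0.346). Cenpf, a centromere protein, differed by 0.34 (SE 0.14, adjusted p = 0.454).

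Among S phase members of WT mice, Uhrf1, which is needed for DNA methylation to be copied to new strands, had the smallest p. It lay between 5.50 and 5.71 (median 5.56) housed apart and was 5.69, 5.77, 5.86, 5.74 and 6.02 co-housed, with 1 co-housed library inside the range of the others. In WT mice 0 members had housing groups that did not overlap, against 0.525% of all tested genes. The difference was 0.23 (SE 0.096, adjusted p = 0.455). Gins2, a subunit of the active helicase, differed by 0.22 (SE 0.11, adjusted p = 0.488). By contrast Cdk1 was lower by 0.12 (SE 0.11), Mcm5 by 0.050 (SE 0.092) and Mcm6 by 0.028 (SE 0.080), and Pcna was higher by 0.049 (SE 0.092). The differences were 0.19 (SE 0.12) for Top2a and 0.13 (SE 0.088) for Ccnb1. The intervals excluded a fold below 0.793 or above 1.54.

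In Xiap-/- mice 0 of 42 members passed for housing by limma, against 0.147% of all tested genes, and 5 of 42 (11.9%) had an unadjusted p under 0.05, against 11.3% of all. The difference was above 0 for 34 of 42 members, against 50.2% of all tested genes. The median difference was 0.12 for S phase members (14 of 18 above 0) and 0.098 for mitotic members (20 of 24). Without replicate 3 of the mice housed apart, 30 of 42 were above 0, with medians of 0.094 and 0.049. With a proxy for depth as a covariate, 31 of 42 were above 0 in Xiap-/- mice and 31 of 42 in WT mice. Of the 5 members with an unadjusted p under 0.05, 4 were among the 18 S phase members (22.2%) and 1 among the 24 mitotic members (4.17%). These shares rest on few genes, and their contrast was not tested. Mcm6 was 6.75, 6.63, 6.32 and 6.65 housed apart and 6.90, 6.84, 6.86, 7.01 and 6.87 co-housed. Every co-housed library was above every library housed apart, as in 5.63% of all tested genes and in no other member. The difference was 0.31 (SE 0.089, 95% interval 0.13 to 0.49, adjusted p = 0.15), and 0.22 (adjusted p = 0.62) without replicate 3 of the mice housed apart.

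Fen1, the nuclease that trims Okazaki fragments, was 5.38, 4.97, 5.36 and 5.46 housed apart and 5.57, 5.42, 5.46, 5.60 and 5.61 co-housed in Xiap-/- mice. The groups overlapped in part, and the difference was 0.24 (SE 0.0997, adjusted p = 0.363). It was 0.13 (adjusted p = 0.695) without Xiap-/- housed apart replicate 2 and 0.090 (adjusted p = 0.944) with a proxy for depth as a covariate. That replicate also had the highest proxy of the 20 libraries, so these checks are not separate. Rrm1 differed by 0.26 (SE 0.11, adjusted p = 0.377) and Ccne1 by 0.24 (SE 0.10, adjusted p = 0.387). Ccne1 had a mean of 3.41, near the minimum of 3.32, and its level in Xiap-/- co-housed replicate 2 stood apart (3.959, next 3.544). Of the mitotic members, Ccna2, the cyclin of S phase and G2, was 6.37, 6.33, 6.15 and 6.11 housed apart and 6.43, 6.55, 6.29, 6.62 and 6.50 co-housed, a difference of 0.24 (SE 0.11, adjusted p = 0.397). Ccnb1 differed by 0.19 (SE 0.098, adjusted p = 0.472), with levels of 4.65, 4.67, 4.50 and 4.69 against 4.64, 4.89, 4.88, 4.86 and 4.82. The differences were 0.18 (SE 0.12) for Cdk1, 0.14 (SE 0.13, and 0.016 without replicate 3 of the mice housed apart) for Top2a, 0.083 (SE 0.10) for Pcna, 0.048 (SE 0.15) for Mki67 and -0.029 (SE 0.10) for Mcm5. The intervals excluded a fold below 0.774 or above 1.40.

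**Figure D4:**
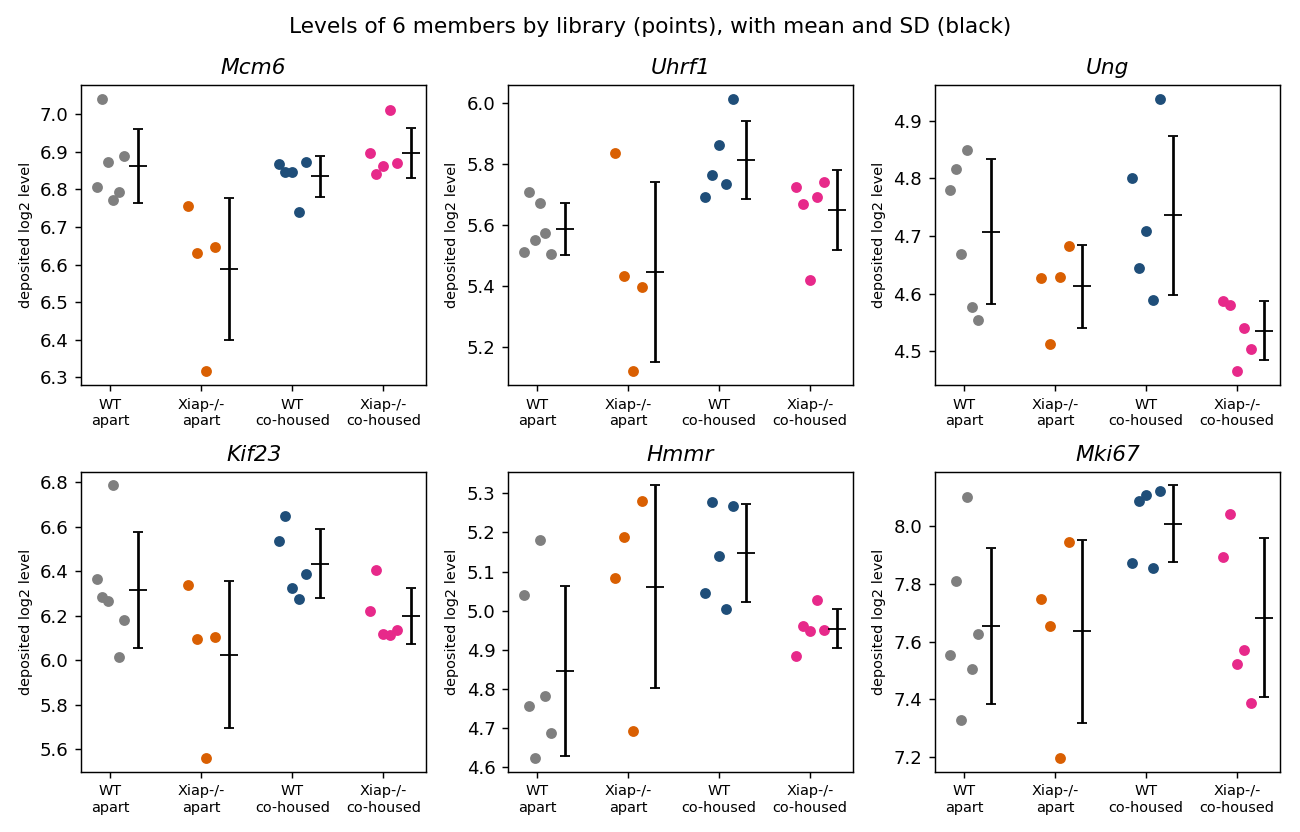
Deposited log2 level of 6 members in each of the 20 libraries (points), with the mean and SD of each group in black, on axes that do not start at 0. Mcm6 in Xiap-/- mice housed apart lies between 6.32 and 6.75, below the 6.77 to 7.04 of WT mice housed apart and the 6.84 to 7.01 of co-housed Xiap-/- mice.

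Whether the housing difference itself differed between the 2 genotypes was tested by the interaction, the difference between both genotype differences. It passed for 0 of 42 members by limma, against 0.0105% of all tested genes, and 2 of 42 members (4.76%) had an unadjusted p under 0.05, against 7.05% of all. Those 2 pointed in opposite directions. For Mcm6 the interaction was 0.34 (SE 0.12, adjusted p = 0.552), as the genotype difference was -0.27 housed apart and 0.062 co-housed. For Hmmr it was -0.41 (SE 0.15, adjusted p = 0.57), as the genotype difference was 0.22 housed apart and -0.19 co-housed. Rrm1 had an interaction of 0.27 (SE 0.15, adjusted p = 0.746) and Cdk1 one of 0.30 (SE 0.16, adjusted p = 0.731). Those of Mki67 (-0.31, SE 0.20), Top2a (-0.046, SE 0.17), Pcna (0.034, SE 0.14), Mcm5 (0.021, SE 0.14) and Ccnb1 (0.055, SE 0.13) did not pass either. The interaction was above 0 for 27 of 42 members, against 49.1% of all tested genes. With 1 library left out, that count ran from 23 (without Xiap-/- housed apart replicate 3) to 32 (without Xiap-/- housed apart replicate 1). It was also 23 of 42 with array quality weights and with the depth proxy as a covariate. Intervals of the interaction were wider, with a median half-width of 0.286, and ran from -0.73 at the lowest to 0.62 at the highest.

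Averaged over both housings, the genotype difference passed for 0 of 42 members by limma while 2.06% of all tested genes passed, and 4 of 42 members (9.52%) had an unadjusted p under 0.05, against 20.5% of all. Kif23 came nearest with -0.26 (SE 0.088, adjusted p = 0.0918). Its mean was 6.32 in WT and 6.02 in Xiap-/- libraries housed apart, and 6.43 and 6.20 co-housed. Leaving out WT housed apart replicate 5 gave -0.29 (adjusted p = 0.0281) and leaving out Xiap-/- housed apart replicate 3 gave -0.19 (adjusted p = 0.212). The former refit called 956 of all 9521 tested genes, against 196 with all libraries. Ung (-0.15, SE 0.059, adjusted p = 0.154), Uhrf1 (-0.15, SE 0.072, adjusted p = 0.222) and Bub1b (-0.15, SE 0.071, adjusted p = 0.216) followed. Mki67 differed by -0.17 (SE 0.099), Top2a by -0.16 (SE 0.087), Mcm5 by -0.037 (SE 0.068), Pcna by 0.055 (SE 0.068), Ccnb1 by 0.041 (SE 0.066) and Cdk1 by 0.11 (SE 0.078). The difference was above 0 for 17 of 42 members, against 49.4% of all tested genes.

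Averaged over both genotypes, housing passed for 0 of 42 members by limma, against 0.179% of all tested genes, and 8 of 42 members (19%) had an unadjusted p under 0.05, against 14.4% of all. All 8 were higher in co-housed mice. They were Uhrf1 (0.22, SE 0.072, adjusted p = 0.157), Mcm6 (0.14, SE 0.060, adjusted p = 0.277), Fen1 (0.15), Ccne1 (0.16), Ccna2 (0.19, SE 0.072, adjusted p = 0.231), Ccnb1 (0.16, SE 0.066, adjusted p = 0.256), Plk1 (0.16) and Cenpf (0.23). Mki67 differed by 0.20 (SE 0.099), Top2a by 0.16 (SE 0.087), Pcna by 0.066 (SE 0.068), Cdk1 by 0.029 (SE 0.078) and Mcm5 by -0.039 (SE 0.068). The difference was above 0 for 35 of 42 members, against 49.5% of all tested genes, with medians of 0.091 for the S phase and 0.089 for the mitotic members. Leaving out each of the 20 libraries in turn gave 33 to 38 members above 0. The members share their libraries and vary together within them, so the count over members is a description of these libraries. In bulk RNA a smaller share of dividing cells and less of each transcript per dividing cell cannot be told apart.

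S phase and mitotic members were then set against each other within each library. A list's level in a library was the mean, over its tested members, of each member's deviation from its own mean over the 20 libraries. For S phase members this level was -0.019 (SD 0.055) in WT and -0.069 (SD 0.12) in Xiap-/- libraries housed apart, and 0.037 (SD 0.079) and 0.042 (SD 0.054) in the co-housed ones. For mitotic members it was -0.028 (SD 0.10) and -0.062 (SD 0.12) housed apart, and 0.055 (SD 0.063) and 0.027 (SD 0.072) co-housed. The groups overlapped in both lists. The balance, S phase minus mitotic, had means of 0.0089 (SD 0.097), -0.0079 (SD 0.043), -0.019 (SD 0.027) and 0.015 (SD 0.072) in the same order of groups, each smaller than its SD. Single libraries ranged more widely, from -0.13 in WT housed apart replicate 4 to 0.13 in WT housed apart replicate 6. In the latter the mitotic level was -0.19 and the S phase level -0.066, with Cdk1 at 6.00 and Ccnb1 at 4.41, each the lowest of 20 libraries.

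The lowest library in both lists was Xiap-/- housed apart replicate 3, at -0.20 for S phase and -0.22 for mitotic members. In it 3 of 18 S phase and 3 of 24 mitotic members stood above their own mean, while 51% of all tested genes did. Xiap-/- housed apart replicate 2 followed with 7 of 42 members above their mean and WT housed apart replicate 6 with 10 of 42, against 33 of 42 in WT co-housed replicate 5. Markers of other cells differed between these libraries. The absorptive cell marker level was 0.35 in Xiap-/- housed apart replicate 3 and 0.43 in WT housed apart replicate 6, but -0.038 in Xiap-/- housed apart replicate 2. It was -0.27 in WT co-housed replicate 5 and also in WT housed apart replicates 2 and 4, where 27 and 23 of 42 members stood above their mean. By group it ranged from -0.27 to 0.43 in WT and from -0.038 to 0.35 in Xiap-/- libraries housed apart, and from -0.27 to -0.033 and from -0.29 to 0.045 in the co-housed ones. Averaged over genotypes, the housing difference was below 0 for 15 of 16 absorptive cell markers (median -0.18), for 7 of 7 goblet cell markers (median -0.13) and for 11 of 11 T cell markers (median -0.17). It was above 0 for 10 of 11 stem cell markers (median 0.070), and no marker of these 4 lists passed the test for housing. The most abundant gene of each list, none of which passed, differed by -0.18 (Fabp2, absorptive), -0.13 (Zg16, goblet), -0.32 (Gzma, T cell), 0.086 (Slc12a2, stem cell), -0.039 (Defa24, Paneth), 0.14 (Igha, plasma cell) and -0.056 (Vim, stromal). Their part in the members' differences was not tested.

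Depth is unknown for these libraries, and a proxy for it, the share of rare genes that stood above their plateau, was 4.58% to 14.9% in WT and 9.55% to 32.1% in Xiap-/- libraries housed apart, 7.50% to 11.1% in WT and 4.69% to 12.4% in Xiap-/- co-housed libraries. The highest value, 32.1%, was that of Xiap-/- housed apart replicate 2, and the next highest, 16.6%, that of replicate 4 of the same group. Results with the proxy as a covariate therefore lean on 1 library. With the proxy as a covariate, the members above 0 were 21 of 42 for genotype housed apart and 33 of 42 for housing averaged over genotypes.

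**Figure D5:**
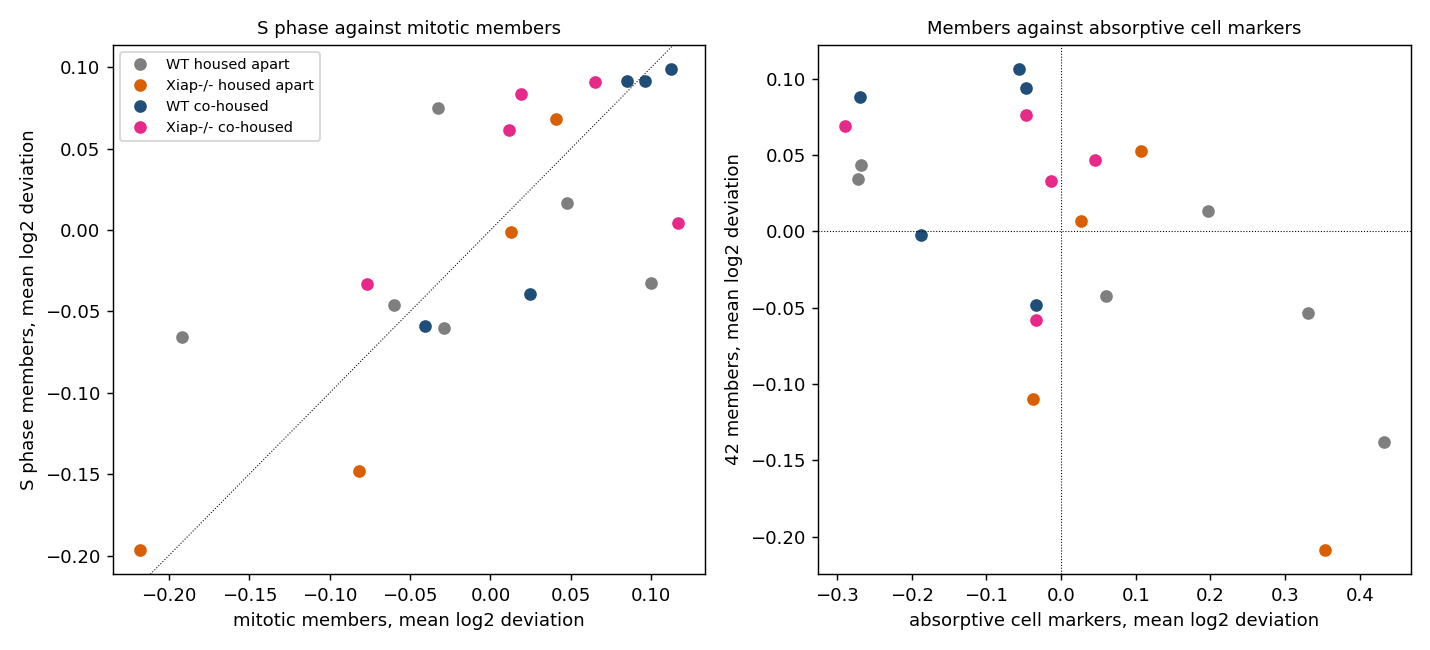
Mean log2 deviation of the S phase members against the mitotic members (left, dotted line where both are equal) and of the 42 members against 16 absorptive cell markers (right), 1 point per library, coloured by group. Xiap-/- housed apart replicate 3 lies lowest in both panels, at -0.20 and -0.22 on the left, with an absorptive marker level of 0.35 on the right.

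Other genes of the cycle, outside the 44, were counted from fixed lists. Of 41 tested replication genes (origin recognition, polymerases, nucleotide enzymes) 0 passed in any of the 7 comparisons by limma. At an unadjusted p under 0.05 their number ran from 2 of 41 (4.88%) for the interaction, against 7.05% of all tested genes, to 12 of 41 (29.3%) for genotype averaged over housings, against 20.5% of all. Of 43 tested mitotic genes 0 passed, and at an unadjusted p under 0.05 there were between 1 of 43 (2.33%) for housing averaged over genotypes, against 14.4% of all, and 6 of 43 (14%) for genotype housed apart, against 15.8% of all. For housing averaged over genotypes, 29 of 41 and 37 of 43 were above 0, against 49.5% of all tested genes, with medians of 0.059 and 0.063. The most abundant of each list, the dUTPase Dut (mean 7.09) and the condensin subunit Smc4 (mean 7.31), differed by 0.10 (SE 0.075) and 0.14 (SE 0.076) in that comparison. Of 11 tested brakes of the cycle 0 passed, and at an unadjusted p under 0.05 there were at most 3 of 11 (27.3%), for genotype housed apart, against 15.8% of all tested genes, and for genotype averaged over housings, against 20.5%. For housing averaged over genotypes 2 of 11 brakes were above 0, against 49.5% of all tested genes. Among those below 0 was the Cdk inhibitor Cdkn1a (mean 8.50), at -0.16 (SE 0.077, adjusted p = 0.338).

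Of 20 tested regulators of the cycle, 1 passed, in the genotype comparison averaged over housings, where 2.06% of all tested genes passed. At an unadjusted p under 0.05 there were 7 of 20 (35%) in that comparison, against 20.5% of all. Myc, a transcription factor that drives growth and entry into the cycle, was higher in Xiap-/- mice averaged over housings by 0.27 (SE 0.073, adjusted p = 0.0427). It lay between 4.69 and 5.05 (median 4.99) in WT libraries housed apart, and its mean was 4.95 (SD 0.14) there against 5.16 (SD 0.16) in Xiap-/- libraries. Co-housed, its mean was 4.91 (SD 0.15) in WT and 5.24 (SD 0.22) in Xiap-/- libraries. The call was lost in 13 of 20 refits that left out 1 library each, and with the depth proxy as a covariate (0.25, adjusted p = 0.232). The most abundant regulator, the D-type cyclin Ccnd2 (mean 9.49), differed by 0.036 (SE 0.075) in the same comparison. Among the marker lists, the genotype difference averaged over housings passed for the absorptive peptidase Anpep (-0.29, adjusted p = 0.0497), the Paneth cell lectin Reg3g (-1.02, adjusted p = 0.0297) and Ttr (0.26, adjusted p = 0.0359), and Ttr also passed for genotype housed apart (0.42, adjusted p = 0.0346). With 1 library left out, the averaged calls were lost in 14 of 20 refits for Anpep, 6 for Reg3g and 10 for Ttr, and with the depth proxy as a covariate in all 3 (adjusted p = 0.263, 0.178 and 0.264). The call of Ttr for genotype housed apart was lost in 7 of 20 refits, with only the groups compared (adjusted p = 0.114) and with the depth proxy (0.29, adjusted p = 0.796). No other member of a marker list passed in any of the 7 comparisons.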

How the data were processed

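Poly(A) RNA was sequenced from its 3' end with molecular identifiers, per the labels' protocols. The authors deposited 1 table of normalized values, which lie on a log2 scale from -3.88 to 16.30. The submitters' processing notes name DESeq2 1.18.1 and GRCm38.p6, and the transformation is not given in the sources used here. Counts were not used here, so depth is unknown, and differences of low genes may be shrunk.

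Values were used as deposited. The 9521 genes with a mean of at least log2 of 10 (3.32) were fitted with limma 3.58.1 in R 4.3.3, as 4 group means over 20 libraries (variance trend, robust moderation, 16 residual degrees of freedom). Tests were two-sided. P-values were adjusted over the 9521 genes by the Benjamini-Hochberg method, with a threshold of 0.05 for calling a gene. Errors are SE of the model or SD over libraries, with 95% intervals not adjusted for the number of genes. The depth proxy counted genes with a mean below -3 that stood more than 0.015 above their own median. No libraries were identical. The fit was tested on simulated data with independent noise and with shifts larger than any member difference reported here. It therefore says nothing about the power to call differences as small as those of the members. Members and lists were chosen with earlier results of these data known. Named in each comparison are members that passed or, with none, the 2 S phase and 2 mitotic members with the smallest p. Mki67, Pcna, Top2a, Mcm5, Ccnb1 and Cdk1 are always named, as are genes of the other lists that passed. The most abundant gene of each other list is given in 1 comparison. Further members named were chosen after their values were seen. Alternatives were 3 filters, 2 scalings, array weights, another variance model, fewer groups, the depth proxy, a replicate block and each library left out.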

Additional observations from a re-analysis of the deposited data

Results flagged for a closer look

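In 10 of 88 sets of values (a gene or list in a group of 4 to 6 libraries) 1 library stood apart from the others of its group by Dixon's criterion, which chance meets in about 1 in 20 sets. Among S phase members, Mcm6 was lowest in WT co-housed replicate 4 (6.739, next 6.847), Uhrf1 lowest in Xiap-/- co-housed replicate 3 (5.42, next 5.67) and Gins2 lowest in Xiap-/- housed apart replicate 3 (4.059, next 4.562). Ccne1 was highest in WT co-housed replicate 5 (3.725, next 3.372) and in Xiap-/- co-housed replicate 2 (3.959, next 3.544). Among mitotic members, Bub1b was lowest in WT housed apart replicate 5 (5.204, next 5.454) and in Xiap-/- housed apart replicate 3 (4.938, next 5.319), and Ccnb1 was lowest in Xiap-/- co-housed replicate 1 (4.638, next 4.823). Xiap-/- co-housed replicate 2 also stood apart in the balance of S phase minus mitotic members (-0.1124, next 0.02598) and in the absorptive cell marker level (-0.2891, next -0.04706).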

How the results depend on the processing

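The count of members past the threshold went from 0 to 1 with array quality weights for housing in Xiap-/- mice (Mcm6, 0.27, adjusted p = 0.0357). It did so too for genotype averaged over housings (Kif23, -0.24, adjusted p = 0.0321). These weights raised the calls over all 9521 tested genes to 224 and 791 in those comparisons. For genotype averaged over housings the count was also 1 with the replicate block (Kif23, -0.30, adjusted p = 0.0298). Leaving out 1 library gave 0 to 1 members for genotype housed apart and for genotype averaged over housings, and 0 in the other 5 comparisons. In both cases the 1 came without WT housed apart replicate 5, where 697 and 956 of all 9521 tested genes were called. The labels do not say that a replicate number is shared between groups, so the block is only an alternative. Same-numbered libraries of 2 groups had correlations between -0.416 and 0.363, and differently numbered ones were not compared. Calls over all genes moved far more, from 43 to between 3 and 385 for genotype housed apart (697 without WT housed apart replicate 5), 3 to between 0 and 159 for genotype co-housed, 0 to at most 5 for housing in WT (66 without WT housed apart replicate 4), 14 to between 1 and 224 for housing in Xiap-/- mice, 1 to between 0 and 10 for the interaction, 196 to between 6 and 791 for genotype averaged (956 without WT housed apart replicate 5) and 17 to between 4 and 135 for housing averaged (226 without WT housed apart replicate 4). The fewest came with the depth proxy as a covariate in 4 of these 7. For genotype housed apart, differences near 0 changed sign: with array weights Mki67 to 0.11 and Mcm5 to 0.028, with the depth proxy Mki67 to 0.022 and Ccnb1 to -0.075, and with the replicate block Ccnb1 to -0.0053. For housing in Xiap-/- mice, array weights gave Mki67 -0.078. With 1 library left out, the range for genotype housed apart was -0.12 to 0.13 for Mki67, -0.0099 to 0.087 for Pcna, -0.10 to 0.029 for Mcm5, -0.028 to 0.063 for Ccnb1 and -0.13 to 0.019 for Cdk1. For genotype co-housed it was -0.065 to 0.012 for Mcm5 and -0.0073 to 0.12 for Ccnb1, and for housing in WT -0.0043 to 0.099 for Pcna and -0.088 to 0.027 for Mcm5. For housing in Xiap-/- mice it was -0.098 to 0.15 for Mki67 and -0.094 to 0.027 for Mcm5. Of 48 differences of named members, 24 moved by over 1.5 times with 1 library left out, 13 of them without Xiap-/- housed apart replicate 3. The cause was not tested. The median differences of the S phase and mitotic members moved by less than 1 SD of their list level between libraries (0.078 and 0.089) under every alternative. That SD is larger than several of the medians, so a change of sign can fall within it. For genotype housed apart the mitotic median ran from -0.068 to 0.019 with 1 library left out. With a minimum of log2 of 30 the members below it were not tested. The number of libraries limits what can be called: intervals of 2-group differences were about 0.2 wide to either side.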
